A study of Homo sapiens with 15 samples.

Results

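Antigen presentation genes were followed across RNA-seq libraries of the breast cancer line MDA-MB231, a human cell line of the triple-negative type. The 40 genes were listed by symbol for class I and class II HLA molecules, their regulators, the machinery that makes and loads peptides, and surface ligands read by T cells and natural killer cells. All 40 were found in both deposited tables, among 60651 genes in the count table and 23792 in the other. The 15 libraries form 5 groups of 3. In the depletion dataset, SG1 and SG3 carry the genotype label KIF20A knockdown and CTRL is labelled WT. In the overexpression dataset, KIF20A_OE carries the label KIF20A overexpression and EV is labelled WT. All were kept in DMEM with serum. KIF20A is a kinesin that acts in cell division, and the study's question is its part in this kind of cancer. The labels do not say what SG1, SG3 and EV stand for or how the cells were made. They also do not say that replicates were separate cultures, and the p-values measure the spread between these libraries, which may be technical.

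Class I molecules show peptides made in the cytosol to CD8 T cells. The proteasome cuts proteins, the TAP transporter carries the peptides into the endoplasmic reticulum, and tapasin and its partners load them onto a heavy chain paired with B2M. Class II molecules show peptides from endosomes to CD4 T cells. They are built with the invariant chain CD74, which blocks the groove until HLA-DM removes its remnant. CIITA, together with the RFX complex and NF-Y, drives class II genes, and NLRC5 does so for class I. Interferon gamma induces most of these genes, partly through IRF1, also in tumour cells that are not professional antigen-presenting cells.

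Of the 40 genes, 21 lie on chromosome 6, most of them in the HLA region. Positions come from GENCODE 29 on GRCh38 and cover the whole gene, since the tables count whole genes. HLA-DRA, the alpha chain of HLA-DR, lies at chr6:32439842-32445046 on the plus strand. HLA-DQB1, at chr6:32659467-32668383, and HLA-DOA, at chr6:33004178-33009612, lie on the minus strand. PSMB8, at chr6:32840717-32844703 on the minus strand, overlaps PSMB9, at chr6:32844136-32859585 on the plus strand. TAPBP, which encodes tapasin, lies at chr6:33299694-33314387 on the minus strand. CD74 lies at chr5:150401637-150412929 on the minus strand, and CD274, which encodes PD-L1, at chr9:5450503-5470566 on the plus strand. Exons of 25 of the 40 genes overlap exons of another gene, 20 of them on the opposite strand and 11 on the same strand. The sources used here do not give the strand setting of the counting, so reads of such neighbours, and of similar HLA genes, may have been split or lost, and values of these genes are uncertain to that extent.

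The 5 sequences that follow are a choice among genes that differed widely between the overexpression groups, in both directions. Each is the 250 bases before the RefSeq start (GRCh38.p14, gene strand, 5′ to 3′). They are HLA-DQB1 (chr6:32666658-32666907, minus), HLA-DOA (chr6:33009592-33009841, minus), CD74 (chr5:150412911-150413160, minus), TAPBP (chr6:33314079-33314328, minus) and CD274 (chr9:5450292-5450541, plus). Capitals mark the matches found on either strand to 2 motifs. These are CCAAT, the box read by NF-Y, and a pair of GAAA repeats with any 2 bases between them, the core of elements read by interferon regulatory factors.
HLA-DQB1: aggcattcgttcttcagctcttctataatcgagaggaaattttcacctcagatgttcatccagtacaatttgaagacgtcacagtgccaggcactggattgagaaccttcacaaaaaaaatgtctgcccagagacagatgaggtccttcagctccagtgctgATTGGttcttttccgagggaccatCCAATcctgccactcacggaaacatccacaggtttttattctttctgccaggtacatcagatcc
HLA-DOA: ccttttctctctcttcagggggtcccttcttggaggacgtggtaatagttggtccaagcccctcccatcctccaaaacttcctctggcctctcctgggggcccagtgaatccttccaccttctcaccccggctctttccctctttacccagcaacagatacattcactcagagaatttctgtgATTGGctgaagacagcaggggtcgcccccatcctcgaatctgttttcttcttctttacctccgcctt
CD74: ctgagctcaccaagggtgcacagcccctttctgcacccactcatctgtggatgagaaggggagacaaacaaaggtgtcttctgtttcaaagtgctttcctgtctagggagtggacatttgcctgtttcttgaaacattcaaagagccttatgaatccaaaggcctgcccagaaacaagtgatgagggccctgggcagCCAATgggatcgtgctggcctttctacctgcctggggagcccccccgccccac
TAPBP: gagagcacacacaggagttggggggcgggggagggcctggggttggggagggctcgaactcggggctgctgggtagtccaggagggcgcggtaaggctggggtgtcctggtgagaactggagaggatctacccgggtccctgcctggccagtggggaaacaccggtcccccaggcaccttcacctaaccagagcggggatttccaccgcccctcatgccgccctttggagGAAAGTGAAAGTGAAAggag
CD274: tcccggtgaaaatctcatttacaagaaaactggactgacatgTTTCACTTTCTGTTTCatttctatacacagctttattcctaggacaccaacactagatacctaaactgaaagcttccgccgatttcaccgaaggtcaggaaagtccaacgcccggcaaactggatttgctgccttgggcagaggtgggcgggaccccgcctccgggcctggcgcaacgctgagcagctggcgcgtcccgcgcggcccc
HLA-DQB1, HLA-DOA and CD74 held CCAAT or its complement ATTGG and not the GAAA pair. In HLA-DQB1 the matches ended 83 and 59 bases before the start, in HLA-DOA 62 and in CD74 48 bases before it. TAPBP held 2 overlapping matches to the GAAA pair, which ended 10 and 4 bases before the start. CD274 held 2 overlapping matches to the GAAA pair on the other strand. Among the 34 of 40 genes with a window, CCAAT was present in 22 (64.7%), against 37% of all 27305 genes with a window. The GAAA pair was present in 10 (29.4%), against 3.71% of all genes. A gene counted when any of its windows held the motif. All 5 genes shown held a match, but they were chosen and not taken by rank. PSMB8 and HLA-DPA1, with the widest differences between the overexpression groups in each direction, held neither motif. RFXAP, which also differed widely, held neither. HLA-E, HLA-DRA, CIITA, NLRC5, PDIA3 and PDCD1LG2 were not matched. These are matches of letters and say nothing of which factor binds.

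Library totals lay between 40.9 and 51.0 M counts (M for 1000000) for the depletion libraries and between 16.0 and 22.2 M fragments for the overexpression libraries. A count of 0 allows up to 3 counts, equal to 0.0588 to 0.0734 counts per 1000000 (CPM) and 0.135 to 0.188 fragments per 1000000 (FPM), counting error only. KIF20A had 123, 147 and 91.5 CPM in SG1 and 86.2, 60.7 and 79.1 CPM in SG3, against 154, 171 and 160 CPM in CTRL. It had 1348, 269 and 896 FPM in KIF20A_OE, against 101, 143 and 124 FPM in EV. Both depleted groups lay below all CTRL libraries and KIF20A_OE lay above all EV libraries, with an exact two-sided permutation p of 0.1 each, the smallest that 3 against 3 libraries allow. KIF20A was not called in SG1 or SG3 against CTRL (edgeR adjusted p = 0.913 and 0.330). In SG3 against CTRL it was called by DESeq2 (adjusted p = 0.000186) and by edgeR without the low-count filter (adjusted p = 1.85e-07), as it was for the mean of SG1 and SG3 (0.0222 by DESeq2 and 0.000114 without the filter). Without the filter it was also called in SG1 against SG3 (edgeR adjusted p = 0.0261). It was called in KIF20A_OE against EV, with a log2 fold change of 2.49 ± 0.53 (SE; limma adjusted p = 0.00415), or 3.17 without KIF20A_OE replicate 2.

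The libraries labelled KIF20A_OE went against their cell line label. Of 6 markers listed for MDA-MB231, CD44 was at 0.125 to 1.23 FPM in KIF20A_OE and 523 to 788 FPM in EV. AXL was at 0.750 to 0.811 FPM in KIF20A_OE and 811 to 1107 FPM in EV, and CAV1 at 13.8 to 26.5 FPM in KIF20A_OE and 664 to 771 FPM in EV. The summed level of the 6 markers, which also include EGFR, VIM and KRT18, was 523 to 953 FPM in KIF20A_OE and 5310 to 6179 FPM in EV. CDKN2A, chosen after its values were seen and known to be lost in MDA-MB231, was at 276 to 354 FPM in KIF20A_OE and at 0 in EV, SG1, SG3 and CTRL. Spearman correlations over genes were 0.725 to 0.754 between KIF20A_OE and EV libraries, against 0.977 to 0.990 within these groups. They are called the libraries labelled KIF20A_OE from here on. In that comparison the level of KIF20A and the origin of the cells cannot be told apart, and no direction is drawn for KIF20A.

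Leukocytes would bring class II transcripts with them. Of 8 defining leukocyte markers, CD3E, MS4A1 and TYROBP had 0 counts in all 9 depletion libraries, and PTPRC, present on nearly all leukocytes, was at most 0.126 CPM. The 8 summed to 11.4 to 17.1 CPM in SG1, 11.8 to 16.4 CPM in SG3 and 14.4 to 23.0 CPM in CTRL, and the full list of 20 to 105 to 115 CPM in SG1, 98.5 to 103 CPM in SG3 and 101 to 106 CPM in CTRL. In the overexpression dataset 5 of the 8 and 14 of the 20 were listed. The 5 summed to 4.01 to 4.51 FPM in the libraries labelled KIF20A_OE and 5.32 to 9.82 FPM in EV, and the 14 to 59.9 to 71.6 FPM in the libraries labelled KIF20A_OE and 58.8 to 132 FPM in EV. PTPRC was at 0 in the libraries labelled KIF20A_OE and at 0 to 0.667 FPM in EV. The part of such cells in the results was not tested. In RNA of whole cultures, fewer cells of a type and less RNA per cell cannot be told apart.

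Class I and class II genes were both on in CTRL, where levels were read per kilobase (kb) of merged exon from TMM-scaled CPM. The chaperone CALR had the highest level, 510 ± 35.7 CPM per kb, and all its libraries lay above those of the next gene. CD74 at 220 ± 44.9, HLA-B at 192 ± 44.9 and the chaperone CANX at 163 ± 25.4 CPM per kb followed, with ranges that overlapped between neighbours (SD, n = 3 each). B2M was at 106 ± 18.4 CPM per kb, below all CANX libraries. HLA-DRA, at 51.0 ± 1.17 CPM per kb, overlapped HLA-E, at 50.2 ± 15.7 CPM per kb. The transactivators stood lower, with RFX5 at 15.6 ± 1.5, NLRC5 at 3.59 ± 0.739 and CIITA at 2.19 ± 0.95 CPM per kb. HLA-DQA1 and HLA-DQB1 had 0 to 6 counts in each of the 9 depletion libraries and were not tested there.

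No antigen presentation gene passed the threshold in SG1 or SG3. The quasi-likelihood test of edgeR called 0 of the 38 tested members, as it called 0 of all 16786 genes (0.0%), in SG1 against CTRL, SG3 against CTRL, their mean against CTRL and SG1 against SG3. DESeq2 called 0 members as well, and 3, 4, 5 and 5 of all genes. At an unadjusted p under 0.05 there were 4 members in SG1 against CTRL (4.59% of all genes), 0 in SG3 against CTRL (1.19%), 1 for the mean (1.76%) and 3 in SG1 against SG3 (4.74%). These counts rest on single libraries. Of all genes, 770 were past that limit in SG1 against CTRL, and leaving out CTRL replicate 2 gave 330, CTRL replicate 3 gave 2021 and SG3 replicate 1 gave 1529, of which 2, 8 and 5 were members. In SG3 against CTRL 200 genes were, with 440 without CTRL replicate 1 and 460 without SG3 replicate 1, where 3 and 0 were members. For the mean 295 were, with 501, 183 and 836 without CTRL replicate 1, 2 or 3, where 1, 0 and 3 were members. In SG1 against SG3 795 were, with 3080, 372 and 422 without SG3 replicate 1, 2 or 3, where 9, 2 and 2 were members. Leaving out SG1 replicate 3 or CTRL replicate 1 also left 2 members in SG1 against CTRL, and leaving out CTRL replicate 3 gave 6 in SG1 against SG3. The median log2 fold change of the 38 members was -0.07, -0.07, -0.08 and 0.03 in these comparisons, against -0.002, -0.012, -0.013 and 0.013 for all genes. No direction is read from these medians, since each changed sign with 1 library left out. In SG1 against CTRL the median was 0.03 without SG1 replicate 3, and in SG3 against CTRL it was 0.07 without SG3 replicate 1 and above 0 without CTRL replicate 2. For the mean it was 0.02 without CTRL replicate 2, and in SG1 against SG3 it was -0.09 without SG3 replicate 1 and below 0 without CTRL replicate 2 or SG1 replicate 1 or 2. The first 3 comparisons share the CTRL libraries. Of the 38 members, 23 had a negative log2 fold change in SG1 against CTRL, among them all 7 genes of peptide transport and editing. The median of these 7 was -0.23, and their smallest unadjusted p (edgeR) was 0.139. CANX and PDIA3, of these 7, were at -0.018 and -0.015. In SG3 against CTRL 4 of these 7 had a negative log2 fold change. This group is 1 of several, and no direction is read from it.

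**Figure D1:**
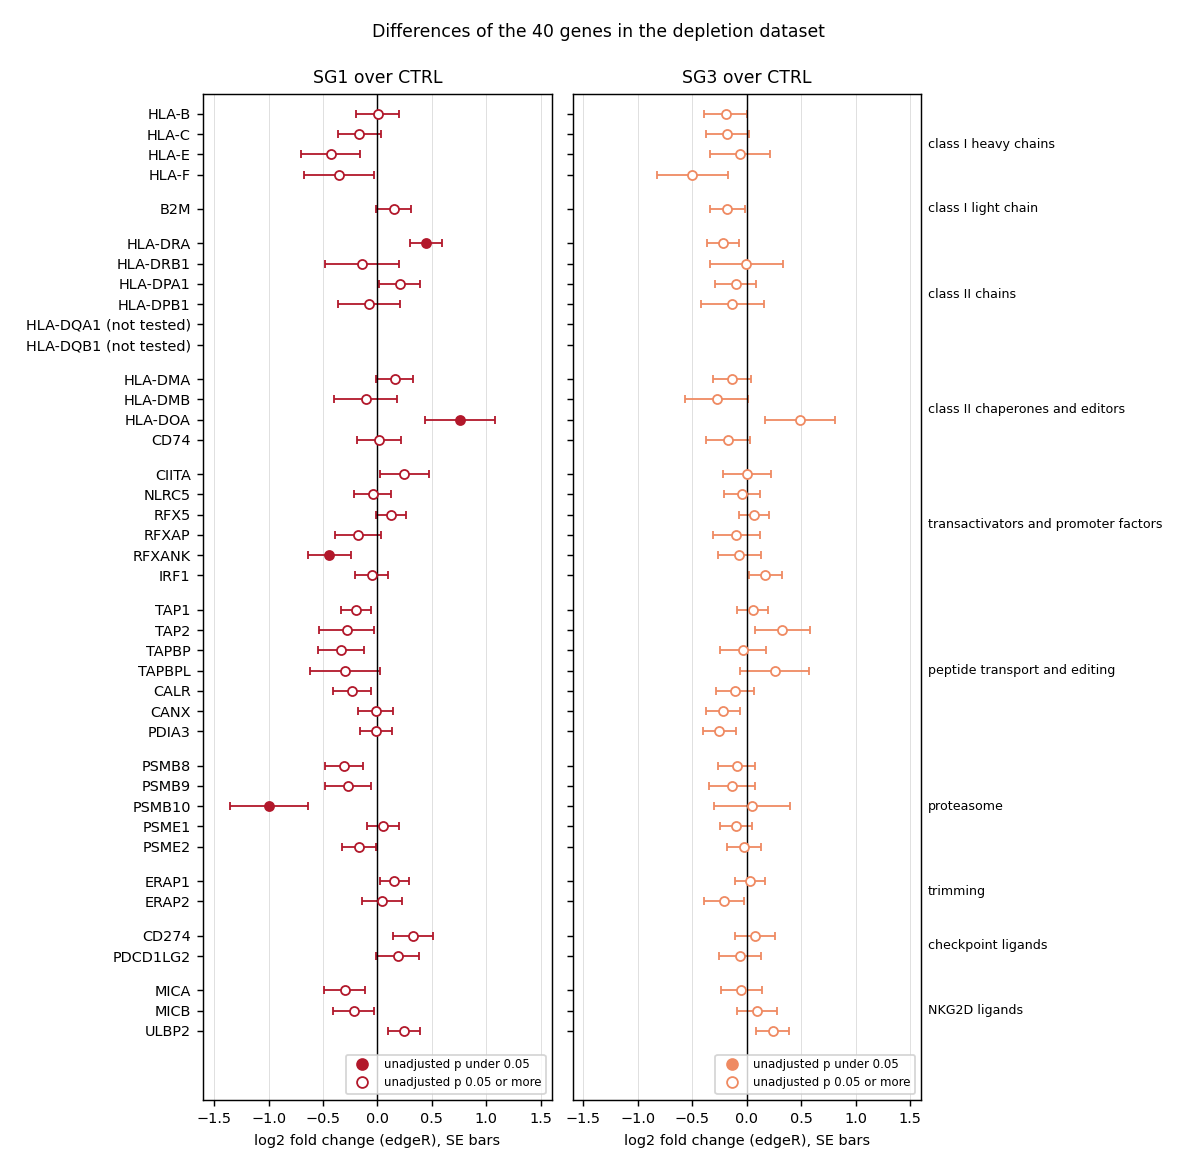
Log2 fold change of each gene in SG1 over CTRL (left) and SG3 over CTRL (right), with SE bars, n = 3 libraries a group; filled points have an unadjusted p under 0.05. The filled points are HLA-DRA, HLA-DOA, PSMB10 and RFXANK, all in SG1, and no gene passed an adjusted p of 0.05.

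HLA-DRA was the member with the smallest p. It had 88.2, 103 and 75.8 CPM in SG1 and 48.5, 57.9 and 61.7 CPM in SG3, against 63.6, 66.3 and 65.9 CPM in CTRL. All SG1 libraries lay above CTRL and all SG3 libraries below it, an arrangement found for 11 of 16786 genes (0.0655%) and for no other of the 38 members. The log2 fold change was 0.45 ± 0.15 (SE) in SG1 and -0.22 in SG3, each relative to CTRL, and 0.67 ± 0.15 between SG1 and SG3. The edgeR adjusted p was 0.913 for SG1 against CTRL and 0.861 for SG1 against SG3 (unadjusted 0.00824 and 0.000417). Without the low-count filter the difference between SG1 and SG3 was called (edgeR adjusted p = 0.0494), and over all alternatives its adjusted p lay between 0.0494 and 1.00. HLA-DRB1, the beta chain of HLA-DR, had 18.7, 17.3 and 12.0 CPM in SG1 and 7.73, 22.2 and 23.0 CPM in SG3, against 21.4, 20.1 and 11.5 CPM in CTRL. It overlapped between all groups.

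Other class II genes showed no such separation. HLA-DPA1, the alpha chain of HLA-DP, had 106, 108 and 84.0 CPM in SG1 and 56.0, 89.4 and 96.1 CPM in SG3, against 93.1, 91.4 and 74.3 CPM in CTRL. CD74 had 804, 746 and 573 CPM in SG1 and 450, 679 and 729 CPM in SG3, against 744, 814 and 539 CPM in CTRL. Both overlapped between all groups. HLA-DOA, which tempers HLA-DM, had 3.29, 2.79 and 1.44 CPM in SG1 and 1.71, 2.47 and 2.07 CPM in SG3, against 1.5, 1.38 and 1.57 CPM in CTRL. SG3 lay above CTRL while SG1 replicate 3 lay inside it. The log2 fold change of HLA-DOA was 0.76 ± 0.32 for SG1 against CTRL (unadjusted p = 0.0321, edgeR adjusted p = 0.913) and 0.63 ± 0.28 for the mean of SG1 and SG3 (unadjusted p = 0.0440, edgeR adjusted p = 1.00). Without SG1 replicate 1 it was 0.50 for SG1 against CTRL.

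PSMB10, an inducible catalytic subunit of the immunoproteasome, had 4.36, 4.77 and 3.45 CPM in SG1 and 5.22, 9.81 and 11.1 CPM in SG3, against 12.1, 9.15 and 3.87 CPM in CTRL. SG1 lay below all SG3 libraries and overlapped CTRL through CTRL replicate 3. The log2 fold change was -1.0 ± 0.36 for SG1 against CTRL and -1.05 ± 0.36 for SG1 against SG3 (edgeR adjusted p = 0.913 and 0.861, unadjusted 0.0139 and 0.0104). Without CTRL replicate 1 it was -0.65 for SG1 against CTRL. Without the low-count filter both were called (edgeR adjusted p = 0.0174 and 0.00525), within ranges over all alternatives of 0.0174 to 1.00 and 0.00525 to 1.00. TAP2, a chain of the peptide transporter, had 5.62, 5.08 and 5.05 CPM in SG1 and 5.98, 8.92 and 9.15 CPM in SG3, and 8.62, 6.21 and 4.33 CPM in CTRL. SG1 lay below SG3 (log2 fold change -0.61 ± 0.25, unadjusted p = 0.0302, edgeR adjusted p = 0.861), and the CTRL libraries spanned SG1.

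ULBP2, a stress ligand of the NKG2D receptor of natural killer cells, was the member that separated both depleted groups from CTRL. It had 15.7, 16.4 and 15.2 CPM in SG1 and 15.9, 15.5 and 15.7 CPM in SG3, against 14.2, 13.5 and 12.2 CPM in CTRL. All 6 depleted libraries lay above all CTRL libraries, as they did for 0.536% of all genes. The log2 fold change of the mean was 0.24 ± 0.13 and did not pass the threshold (unadjusted p = 0.0888, edgeR adjusted p = 1.00). No member lay below CTRL in all 6 depleted libraries (0.441% of all genes, 0.977% in either direction). In SG1 against CTRL 2 members lay above (4.96% of all genes) and 2 below (7.21%), 12.2% of genes in either direction. In SG3 against CTRL 2 members lay above (2.28%) and 2 below (2.37%), against 4.65% in either direction. In SG1 against SG3 2 members lay above (6.26%) and 4 below (4.55%), against 10.8% in either direction.

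RFXANK, a subunit of the RFX complex, was among those below CTRL in SG1, with 23.8, 19.7 and 21.2 CPM in SG1, against 29.4, 33.7 and 24.7 CPM in CTRL (unadjusted p = 0.0413, edgeR adjusted p = 0.913). In SG3 against CTRL the smallest p belonged to PDIA3, a disulfide isomerase of the loading complex, with 371, 353 and 361 CPM in SG3, against 374, 407 and 509 CPM in CTRL. Its log2 fold change was -0.25 ± 0.15 (unadjusted p = 0.112, edgeR adjusted p = 1.00), and -0.12 without CTRL replicate 3. HLA-F, a class I molecule with a restricted pattern, had 3.26, 5.64 and 4.34 CPM in SG3 and 6.88, 8.74 and 3.07 CPM in CTRL, and overlapped.

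**Figure D2:**
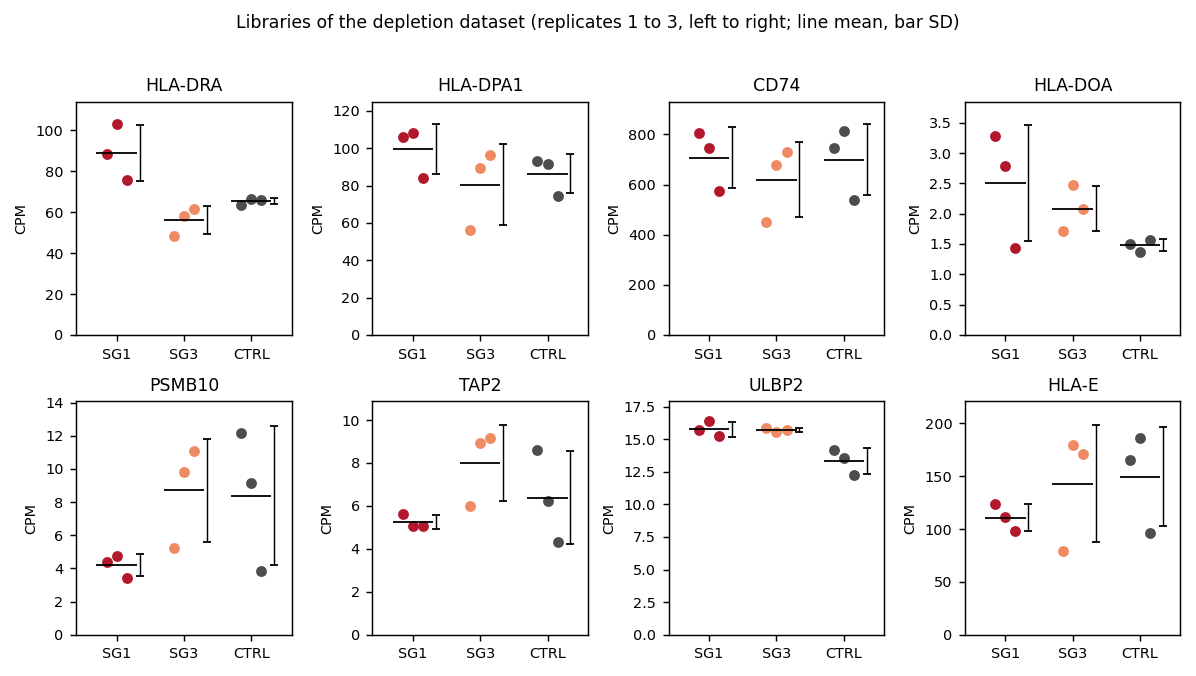
CPM in the 3 libraries of SG1, SG3 and CTRL, with the mean as a line and the SD as a bar, for 8 genes. HLA-DRA lies above CTRL in SG1 and below it in SG3, and ULBP2 lies above CTRL in both, whereas HLA-E, HLA-DPA1 and CD74 overlap between all groups.

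In each depletion group 1 library had the lowest value of most members. SG1 replicate 3 was the lowest of its group for 32 of the 38 tested members and the highest for 3. SG3 replicate 1 was the lowest for 26 and the highest for 9, among them B2M, ERAP1, CANX and CD274. CTRL replicate 3 was the lowest for 26 and the highest for 7, among them B2M, PSME1, CANX and PDIA3. Ranks were counted for the members only and not for all genes, so they are not read as particular to the members. The 13 mitochondrial messenger RNAs, read as a sign of RNA quality, summed to 22115, 15335 and 33783 CPM in SG1 and 19586, 11781 and 9609 CPM in SG3, against 25087, 11400 and 9945 CPM in CTRL. They were highest in SG1 replicate 3 and SG3 replicate 1, and in CTRL lowest in replicate 3. Their part in the members' levels was not tested. HLA-E, which is read by the inhibitory receptor NKG2A, had 79.2 CPM in SG3 replicate 1, against 179 and 171 CPM in the other SG3 libraries. In CTRL it had 96.5 CPM in replicate 3, against 165 and 186 CPM in the other libraries. Of 71 tested genes of the wider pathway, edgeR called 0 in each comparison, and 2, 0, 0 and 7 had an unadjusted p under 0.05. The smallest p of that list belonged to CTSS, the cathepsin that cuts CD74, in SG1 against CTRL. CTSS averaged 40.7 ± 7.10 CPM in SG1 and 29 ± 1.84 CPM in SG3, against 28.9 ± 2.23 CPM in CTRL (SD, n = 3 each). Its log2 fold change was 0.50 ± 0.16 for SG1 against CTRL and 0.49 ± 0.16 for SG1 against SG3 (edgeR adjusted p = 0.913 and 0.861). In SG3 against CTRL the smallest p belonged to HSPA5, the chaperone BiP, with 1119 ± 33.5 CPM in SG3 and 1372 ± 262 CPM in CTRL (edgeR adjusted p = 1.00).

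In the overexpression dataset most genes differed between the groups, antigen presentation genes included. With limma on log2(FPM + 1), 32 of the 39 tested members were called (82.1%), against 69.6% of all 15265 genes. Of the 32, 10 were higher and 22 lower in the libraries labelled KIF20A_OE, whereas 46.2% of all genes were called higher and 23.4% lower. Likewise 10 members lay above all EV libraries and 22 below them, against 48.9% and 25.2% of all genes, 74.1% in either direction. The median log2 fold change of the members was -0.69, against 0.37 for all genes. With TMM scaling these medians were -0.96 and 0.035, and the share of higher calls among all calls was 51.0% in place of 66.4%. Tested members with a mean under 1 FPM in one group passed the filter, a mean of 1 FPM over both groups, only through the other group. These were HLA-F, HLA-DPB1, HLA-DQB1, HLA-DMB and HLA-DOA, low in EV. In the libraries labelled KIF20A_OE they were HLA-DRA, B2M, PSMB8, PSMB10, CD274 and PDCD1LG2. The counts above include them, so part of these counts follows from the filter. The limma p-values given for these genes below carry the same limit and are not read without their levels. The same holds for IRF8, HFE and CTSS of the wider pathway, each with a mean under 1 FPM in 1 group. None of the 32 changed direction under TMM scaling or under edgeR on recovered fragments, but RFXANK and ULBP2 lost their call under both and HLA-DMB under edgeR.

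**Figure D3:**
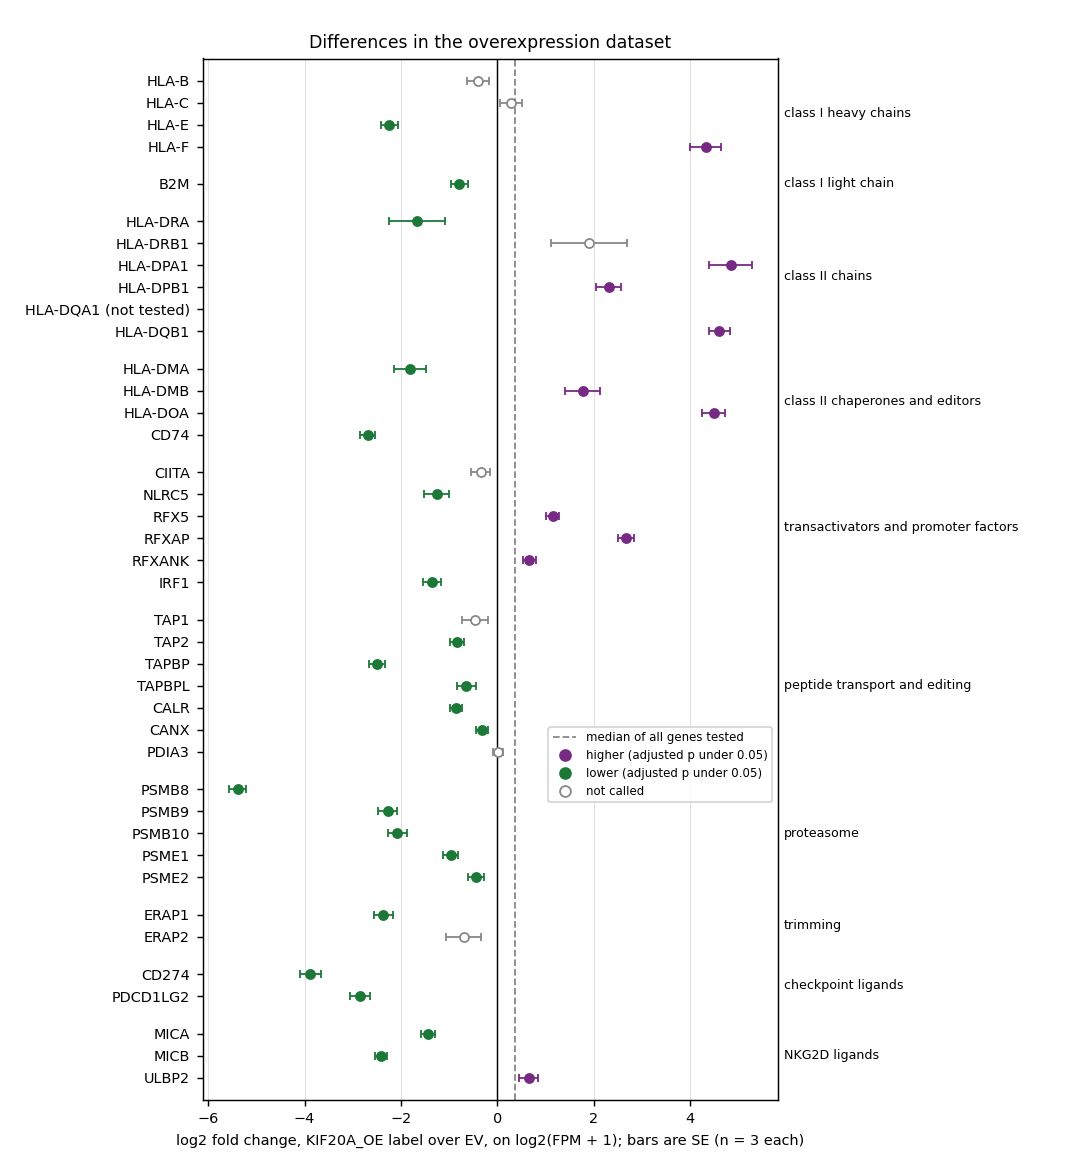
Log2 fold change of each gene on log2(FPM + 1), libraries labelled KIF20A_OE over EV, with SE bars, n = 3 libraries a group; the dashed line is the median of all genes, at 0.37. All 5 proteasome genes and both checkpoint ligands lie left of 0, while 3 of the 5 tested class II chains are called to the right of it.

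Class I heavy chains went different ways. HLA-B had 262, 199 and 263 FPM in the libraries labelled KIF20A_OE, against 382, 217 and 385 FPM in EV, and HLA-C had 412, 351 and 497 FPM in the libraries labelled KIF20A_OE, against 453, 250 and 349 FPM in EV. Both overlapped and were not called (limma adjusted p = 0.149 and 0.275). HLA-E had 108, 102 and 127 FPM in the libraries labelled KIF20A_OE, against 686, 437 and 505 FPM in EV. It was lower, by 2.24 ± 0.18 (SE) on the log2 scale (limma adjusted p = 9.97e-06). HLA-F had 27.5, 23.5 and 27.8 FPM in the libraries labelled KIF20A_OE, against 0, 0.0967 and 1.29 FPM in EV. Its ratio of pooled rates was 63.7 (95% interval 42.7 to 99.8, counting error only; limma adjusted p = 6.16e-06), and no library overlapped.

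B2M, the class I light chain, was listed at 0.438 to 0.589 FPM in the libraries labelled KIF20A_OE and at 1.52 to 1.74 FPM in EV, although it had 525 to 771 CPM in the depletion libraries. H3-3B, a histone gene used by every cell and chosen after its values were seen, was at 2.03 to 3.02 FPM in the libraries labelled KIF20A_OE and 0.714 to 0.967 FPM in EV, against 360 to 466 CPM in the depletion libraries. The call of B2M (log2 fold change -0.79, limma adjusted p = 0.00314) is therefore not read as a level of the light chain. Without B2M, 31 of 38 members were called (81.6%), 10 higher and 21 lower, with a median log2 fold change of -0.67.

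Of the 5 tested class II chains, 3 were called higher and 1 lower in the libraries labelled KIF20A_OE. HLA-DQB1 had 26.0, 17.6 and 27.6 FPM in the libraries labelled KIF20A_OE, against 0, 0 and 0 FPM in EV, at least 153-fold higher over a floor of 3 fragments per library (limma adjusted p = 5.23e-07). HLA-DPA1 had 73.3, 30.1 and 76.4 FPM in the libraries labelled KIF20A_OE, against 1.00, 0.193 and 2.18 FPM in EV (limma adjusted p = 2.64e-05). Its ratio of pooled rates was 54.4 (95% interval 42.3 to 71.1, counting error only). HLA-DPB1 had 7.58, 4.33 and 3.69 FPM in the libraries labelled KIF20A_OE, against 0.19, 0.0967 and 0.353 FPM in EV (limma adjusted p = 6.97e-05). All 3 were higher and none overlapped. HLA-DQA1, the partner of HLA-DQB1, had 0.626, 0.270 and 0.964 FPM in the libraries labelled KIF20A_OE, against 0 in every EV library, and its mean was too low for the test.

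Of the DR chains, HLA-DRA was called lower and HLA-DRB1 was not called. HLA-DRA had 1.00, 0.0902 and 0.321 FPM in the libraries labelled KIF20A_OE, against 1.62, 1.88 and 11.2 FPM in EV. It was lower, by 1.67 ± 0.57 on the log2 scale (limma adjusted p = 0.0316), but its call was lost without KIF20A_OE replicate 2 or 3 (0.0944 and 0.0828), within a range over all alternatives of 0.0107 to 0.0944. Without EV replicate 3 its mean was under the filter. HLA-DRB1 had 12.4, 4.64 and 11.8 FPM in the libraries labelled KIF20A_OE, against 0.762, 0.0967 and 8.64 FPM in EV. It overlapped and was not called (limma adjusted p = 0.0624). Its mean was higher in the libraries labelled KIF20A_OE, at 9.61 FPM against 3.17 FPM in EV, the side of the DP and DQ chains. EV replicate 3 was the highest EV library for both HLA-DRA and HLA-DRB1. The 14 listed leukocyte markers summed to 58.8, 132 and 103 FPM in EV replicates 1, 2 and 3, and 4 of the 14 were highest in replicate 3. The 7 listed fibroblast markers, all highest in replicate 3, summed to 46.7, 27.7 and 102 FPM in the same order. The part of other cells in the DR values was not tested.

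Chaperones and editors of class II went both ways. CD74 had 27.4, 28.4 and 25.5 FPM in the libraries labelled KIF20A_OE, against 165, 157 and 225 FPM in EV, lower by 2.69 ± 0.16 on the log2 scale (limma adjusted p = 1.81e-06). HLA-DMA, the alpha chain of HLA-DM, had 1.82, 1.22 and 1.55 FPM in the libraries labelled KIF20A_OE, against 10.7, 4.16 and 10.5 FPM in EV (limma adjusted p = 0.00117). HLA-DOA had 28.7, 15.2 and 22.5 FPM in the libraries labelled KIF20A_OE, against 0 in every EV library, at least 143-fold higher (limma adjusted p = 1.14e-06). CD74 and HLA-DMA were thus lower in the libraries in which HLA-DOA, HLA-DPA1, HLA-DPB1 and HLA-DQB1 were higher. HLA-DMB, the beta chain of HLA-DM, had 4.57, 5.77 and 3.37 FPM in the libraries labelled KIF20A_OE, against 0.476, 0 and 1.82 FPM in EV. It was higher with limma (adjusted p = 0.00261) but not called with edgeR on recovered fragments (adjusted p = 0.0582), the highest of its alternatives, which began at 0.000289.

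**Figure D4:**
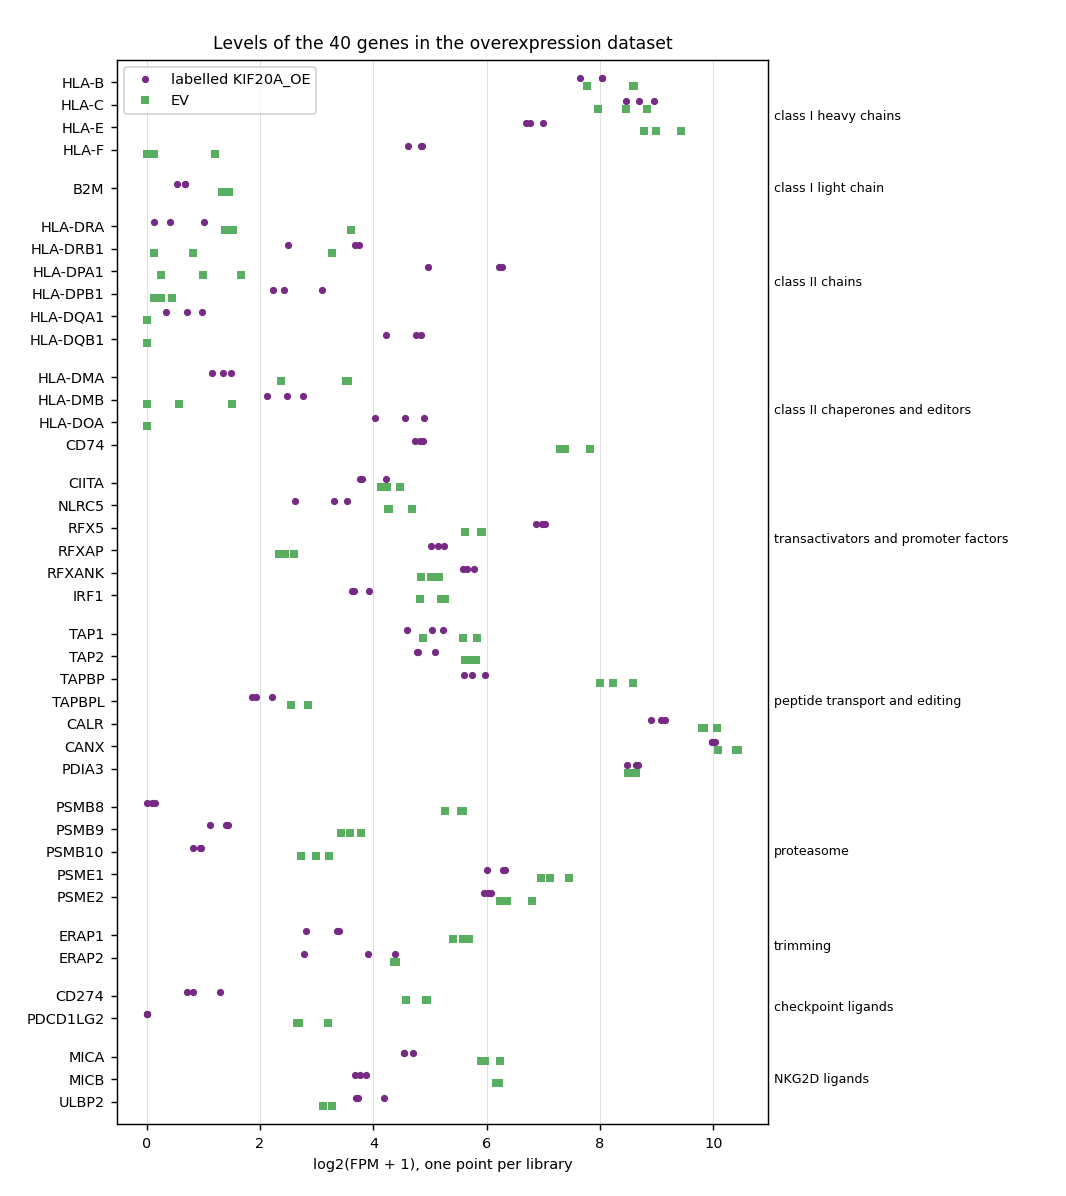
Levels of the 40 genes as log2(FPM + 1), 1 point per library, for the 3 libraries labelled KIF20A_OE and the 3 EV libraries. HLA-DQB1, HLA-DOA and HLA-DPA1 lie further right in the libraries labelled KIF20A_OE, and PSMB8, CD274, CD74 and HLA-E lie further left than in EV.

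Among the transactivators, the RFX subunits were higher. RFXAP had 34.2, 36.8 and 31.4 FPM in the libraries labelled KIF20A_OE, against 4.43, 4.06 and 5.06 FPM in EV, a ratio of 7.66 (limma adjusted p = 2.44e-06). RFX5, which binds the X box of class II promoters, had 124, 130 and 116 FPM in the libraries labelled KIF20A_OE, against 48.3, 58.5 and 59.7 FPM in EV (limma adjusted p = 7.30e-05). RFXANK had 54.0, 49.0 and 47.0 FPM in the libraries labelled KIF20A_OE, against 31.6, 27.5 and 34.7 FPM in EV (limma adjusted p = 0.00283, and 0.00283 to 0.0916 over its alternatives). None of the 3 overlapped. CIITA had 12.9, 17.8 and 12.6 FPM in the libraries labelled KIF20A_OE, against 16.5, 21.0 and 17.9 FPM in EV, overlapped and was not called (limma adjusted p = 0.133). NLRC5 had 10.6, 5.09 and 8.83 FPM in the libraries labelled KIF20A_OE, against 18.2, 18.3 and 24.8 FPM in EV. IRF1 had 14.1, 11.3 and 11.7 FPM in the libraries labelled KIF20A_OE, against 27.1, 35.7 and 37.2 FPM in EV. Both were lower with no overlap (limma adjusted p = 0.00277 and 0.000201).

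Every member of the proteasome group was lower. PSMB8, an inducible catalytic subunit, had 0.0626, 0 and 0.107 FPM in the libraries labelled KIF20A_OE, 3 fragments in all, against 47.2, 37.6 and 46.0 FPM in EV. Its ratio of pooled rates in EV to those labelled KIF20A_OE was 823 (95% interval 281 to 3993, counting error only; limma adjusted p = 1.03e-07). PSMB9 had 1.63, 1.17 and 1.71 FPM in the libraries labelled KIF20A_OE, against 11.0, 12.8 and 9.70 FPM in EV (limma adjusted p = 1.68e-05). None of the libraries overlapped for either gene. PSMB10 had 0.751, 0.947 and 0.910 FPM in the libraries labelled KIF20A_OE, against 5.62, 8.26 and 6.94 FPM in EV (limma adjusted p = 2.89e-05). PSME1, a subunit of the proteasome activator, had 79.0, 63.6 and 77.4 FPM in the libraries labelled KIF20A_OE, against 138, 174 and 123 FPM in EV (limma adjusted p = 0.000679). PSME2, its partner, had 64.3, 66.6 and 61.2 FPM in the libraries labelled KIF20A_OE, against 74.3, 111 and 81.4 FPM in EV. The call of PSME2 (limma adjusted p = 0.0354) was lost without EV replicate 2 or without any 1 of the 3 libraries labelled KIF20A_OE, at 0.0628 to 0.105, within 0.00214 to 0.105 over all alternatives. Of 16 standard proteasome genes, 4 were higher, 0 were lower and 12 were not called, a share of 25.0% called against 69.6% of all genes. PSMB5, which PSMB8 replaces in the immunoproteasome, was among the 4 (limma adjusted p = 0.00203).

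Per kb of exon, the ratio of PSMB8 to PSMB5 was 0.000192 ± 0.000184 in the libraries labelled KIF20A_OE and 0.212 ± 0.0332 in EV. It was 0.277 ± 0.0457 in SG1 and 0.256 ± 0.0640 in SG3, against 0.262 ± 0.0161 in CTRL (SD, n = 3 each). The ratio of PSMB9 to PSMB6 was 0.00592 ± 0.00175 in the libraries labelled KIF20A_OE and 0.0389 ± 0.00727 in EV. That of PSMB10 to PSMB7 was 0.00488 ± 0.000942 in the libraries labelled KIF20A_OE and 0.0362 ± 0.00393 in EV. For all 3 ratios the libraries labelled KIF20A_OE lay below every EV library. In the depletion dataset SG1 and SG3 overlapped CTRL for all 3.

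**Figure D5:**
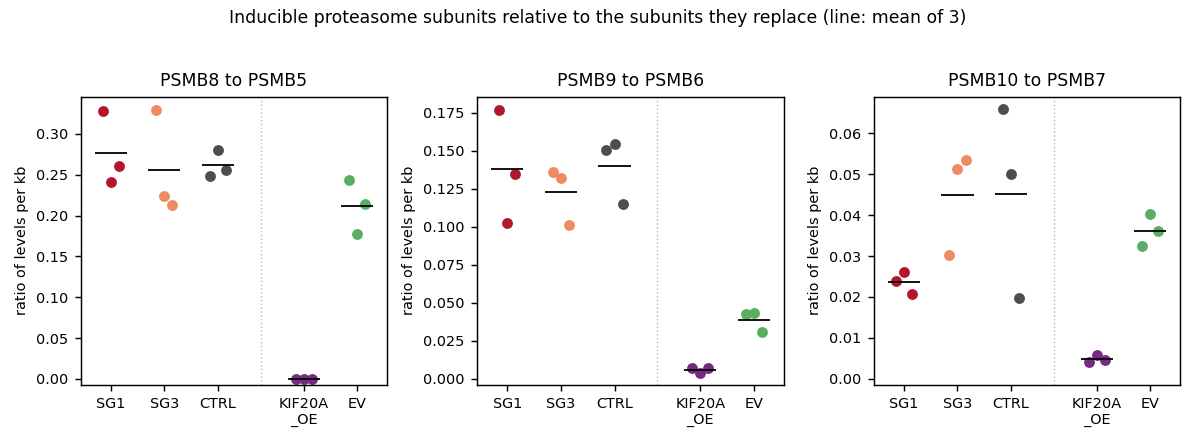
Ratio of levels per kb of each inducible proteasome subunit to the standard subunit it replaces, 1 point per library and a line at the mean of 3, for SG1, SG3, CTRL, the libraries labelled KIF20A_OE and EV. The libraries labelled KIF20A_OE lie near 0, below EV, and SG1 and SG3 overlap CTRL in each panel.

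Peptide transport, loading and trimming genes were lower or not called. TAPBP had 52.3, 47.2 and 61.8 FPM in the libraries labelled KIF20A_OE, against 382, 254 and 298 FPM in EV, lower by 2.50 ± 0.17 on the log2 scale (limma adjusted p = 4.53e-06). TAP2 had 26.2, 26.6 and 32.8 FPM in the libraries labelled KIF20A_OE, against 48.1, 52.1 and 55.0 FPM in EV (limma adjusted p = 0.000848). TAP1, the other chain of the transporter, had 31.9, 23.2 and 36.6 FPM in the libraries labelled KIF20A_OE, against 55.8, 28.3 and 46.8 FPM in EV. TAP1 overlapped and was not called (limma adjusted p = 0.145). CALR had 479, 539 and 566 FPM in the libraries labelled KIF20A_OE, against 1074, 889 and 912 FPM in EV (limma adjusted p = 0.000321). CANX was lower as well (limma adjusted p = 0.0467), but its call was lost without EV replicate 1 or 2 or without any 1 of the 3 libraries labelled KIF20A_OE (0.0970 to 0.127, within 0.00247 to 0.127 over all alternatives). TAPBPL, a relative of tapasin, was lower (limma adjusted p = 0.0180), and its call was lost without EV replicate 2 or KIF20A_OE replicate 1 or 2 (0.0536 to 0.0611, within 0.00347 to 0.0611). PDIA3 differed by 0.01 ± 0.11 on the log2 scale and was not called (limma adjusted p = 0.919).

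The trimming enzymes parted. ERAP1, which trims peptides in the endoplasmic reticulum, had 9.2, 6.04 and 9.53 FPM in the libraries labelled KIF20A_OE, against 41.3, 50.6 and 47.0 FPM in EV, and was lower (limma adjusted p = 1.36e-05). ERAP2, its partner, had 14.0, 5.82 and 19.9 FPM in the libraries labelled KIF20A_OE, against 20.2, 19.6 and 19.7 FPM in EV, overlapped and was not called (limma adjusted p = 0.119). The ratio of ERAP2 to ERAP1 per kb was 1.03 to 2.23 in the libraries labelled KIF20A_OE and 0.416 to 0.523 in EV, with no overlap.

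Both checkpoint ligands were lower. CD274 had 1.44, 0.631 and 0.750 FPM in the libraries labelled KIF20A_OE, against 29.3, 22.8 and 29.9 FPM in EV (limma adjusted p = 1.63e-06). Its ratio of pooled rates in EV to those labelled KIF20A_OE was 30.3 (95% interval 22.9 to 40.8, counting error only). PDCD1LG2, which encodes PD-L2, was at 0 in all 3 libraries labelled KIF20A_OE, against 8.14, 5.46 and 5.29 FPM in EV, at least 39.1-fold lower (limma adjusted p = 5.72e-06). In the depletion dataset CD274 had 35.3, 35.4 and 58.0 CPM in SG1 and 37.5, 34.2 and 36.6 CPM in SG3, against 36.1, 31.0 and 35.6 CPM in CTRL, and overlapped. The ligands of NKG2D split. MICB had 11.7, 12.6 and 13.7 FPM in the libraries labelled KIF20A_OE, against 71.4, 70.4 and 73.6 FPM in EV, and MICA had 25.0, 22.2 and 22.2 FPM in the libraries labelled KIF20A_OE, against 74.3, 61.8 and 58.7 FPM in EV. Both were lower (limma adjusted p = 1.16e-06 and 3.61e-05). ULBP2 had 17.3, 12.2 and 12.0 FPM in the libraries labelled KIF20A_OE, against 8.62, 8.70 and 7.64 FPM in EV. It was higher (limma adjusted p = 0.0159), but not called with TMM scaling (0.166) or without KIF20A_OE replicate 1 (0.0597), within 0.0155 to 0.224 over all alternatives.

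In the wider pathway, 44 of 73 tested genes were called (17 higher and 27 lower), a share of 60.3% against 69.6% of all genes. Of 13 genes of interferon gamma signalling, 2 were higher and 9 lower (84.6% called, against 69.6% of all genes). SOCS3, a feedback inhibitor of cytokine signals, averaged 5.55 ± 1.84 FPM in the libraries labelled KIF20A_OE and 60.95 ± 7.60 FPM in EV (SD, n = 3 each; limma adjusted p = 4.23e-06). IRF8, a factor known from myeloid and B cells, averaged 6.43 ± 1.58 FPM in the libraries labelled KIF20A_OE and was at 0 in EV (limma adjusted p = 6.30e-06). Of 9 endosomal processing genes, 1 was higher and 6 lower (77.8% called). The higher one was the cathepsin CTSH, at 41.8 ± 8.07 FPM in the libraries labelled KIF20A_OE and 3.32 ± 0.51 FPM in EV (limma adjusted p = 2.02e-06). CTSS, at 0.561 ± 0.144 FPM in the libraries labelled KIF20A_OE and 9.15 ± 0.726 FPM in EV, and CTSZ, at 55.1 ± 2.92 FPM in the libraries labelled KIF20A_OE and 420 ± 109 FPM in EV, were among the lower ones (limma adjusted p = 3.84e-06 and 2.18e-06).

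Of 8 ligands of natural killer cells in that list, 4 were higher and 3 lower, a share of 87.5% called against 69.6% of all genes. NCR3LG1, which is read by NKp30, averaged 60.8 ± 13.0 FPM in the libraries labelled KIF20A_OE and 1.92 ± 0.546 FPM in EV (limma adjusted p = 9.13e-07). CD58, the ligand of CD2, averaged 5.49 ± 0.45 FPM in the libraries labelled KIF20A_OE and 52.2 ± 9.78 FPM in EV (limma adjusted p = 1.91e-06). NECTIN2, read by the receptors TIGIT and DNAM1, averaged 68.3 ± 2.08 FPM in the libraries labelled KIF20A_OE and 177 ± 5.2 FPM in EV (limma adjusted p = 8.31e-06). NCR3LG1 was thus higher and CD58 and NECTIN2 were lower. HFE, a class I-like protein of iron control that pairs with B2M, averaged 0.263 ± 0.168 FPM in the libraries labelled KIF20A_OE and 25.1 ± 5.69 FPM in EV (limma adjusted p = 8.01e-07). TNFRSF14, a ligand of BTLA, averaged 1.87 ± 0.542 FPM in the libraries labelled KIF20A_OE and 39.7 ± 12.3 FPM in EV (limma adjusted p = 4.01e-06).

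The promoter matches shown above lay on both sides of this comparison. Of the 10 genes with the GAAA pair, 2 were higher (HLA-F and RFX5), 6 lower (B2M, whose level is not read, TAP2, TAPBP, PSMB10, PSME2 and CD274) and 2 not called (TAP1 and ERAP2). CCAAT was present in 7 of the 10 higher members with a window and in 10 of the 18 lower ones.

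The control groups of the datasets come from tables with separate scaling, and no test was run between them. Side by side, HLA-DRA averaged 4.89 FPM in EV (1.62, 1.88 and 11.2 FPM by library) and 65.3 CPM in CTRL. HLA-DPA1 averaged 1.12 FPM in EV and 86.3 CPM in CTRL, and CD74 182 FPM in EV and 699 CPM in CTRL. HLA-C averaged 351 FPM in EV and 52.5 CPM in CTRL, and TAP2 51.8 FPM in EV and 6.39 CPM in CTRL. Exons of HLA-C and TAP2 overlap those of another gene on the same strand, and exons of HLA-DPA1 those of HLA-DPB1 on the opposite strand. The part of such overlaps, and of how each table was counted, was not tested. The levels of these genes in the controls of the same labelled line thus stand apart only as deposited.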

How the data were processed

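Libraries were grouped by their titles, 3 per group. The depletion table holds raw counts per gene, as deposited by the authors. The overexpression table carries the name FPKM per the labels. Its deposited columns each sum to 1000000 and give whole fragments for 100% of values (tolerance 0.001), so they hold FPM, a CPM of fragments without gene length. The submitters' processing notes name limma 3.50.3, featureCounts (Subread 1.6.3), STAR 2.7.3a, Trim Galore 0.6.4 and the build hg38, without roles, annotation or strand setting. The FPM table lists 0 mitochondrial genes, and its lowest listed gene has 7 fragments over all libraries.

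Raw counts went into edgeR 4.0.16 (R 4.3.3; quasi-likelihood test, TMM, default expression filter, 1 fit of 9 libraries, 16786 genes). FPM values went into limma 3.58.1 (trend, robust) on log2(FPM + 1), for 15265 genes with means from 1 FPM upwards. This scale understates the change of low genes, so ratios of pooled rates carry exact 95% intervals and fold bounds use 3 fragments per library. These intervals hold counting error only and not the spread between libraries. P-values were Benjamini-Hochberg adjusted over all genes at 0.05. DESeq2 1.42.0, other scalings, filters and pseudocounts, a replicate block and leaving out each library were alternatives. The fits were tested on simulated data. Levels per kb use merged GENCODE 29 exons. Named are KIF20A, members called, the 3 members with the smallest p in each comparison and up to 10 genes of a pathway list. Levels are given for any member. The p-values of members not called in the overexpression dataset, and PSMB5 as partner of PSMB8, were added after their values were seen, as were genes marked so in the text. The members, lists and tests were chosen with earlier results of these data known. Summed marker lists hold genes whose own values are not reported here.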

Additional observations from a re-analysis of the deposited data

Results flagged for a closer look

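HLA-DRA drew attention because its SG1 and SG3 libraries lay on opposite sides of all CTRL libraries. It had 88.2, 103 and 75.8 CPM in SG1 and 48.5, 57.9 and 61.7 CPM in SG3, against 63.6, 66.3 and 65.9 CPM in CTRL. The difference between SG1 and SG3 was 0.67 ± 0.15 (SE) on the log2 scale and did not pass the threshold (edgeR adjusted p = 0.861). The other tested HLA class II genes HLA-DRB1, HLA-DPA1, HLA-DPB1, HLA-DMA and HLA-DMB overlapped CTRL in both depleted groups, whereas HLA-DOA lay above all CTRL libraries in SG3 and overlapped CTRL in SG1.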

How the results depend on the processing

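No called difference changed direction. The median of the 38 members, which is no call, changed sign with a library left out, from -0.17 to 0.03 in SG1 against CTRL, -0.16 to 0.07 in SG3 against CTRL, -0.18 to 0.02 for the mean and -0.09 to 0.12 in SG1 against SG3, where it was -0.014 without a low-count filter. With DESeq2, 3 genes of all were called in SG1 against CTRL, 4 in SG3 against CTRL, 5 for the mean and 5 in SG1 against SG3. Without a low-count filter these counts were 91, 8, 20 and 77, and 1 member was called in SG1 against CTRL (lower, PSMB10) and 2 in SG1 against SG3 (1 higher, HLA-DRA, and 1 lower, PSMB10). Leaving out 1 library gave 0 to 1 genes in SG1 against CTRL and 0 to 2 for the mean (the highest without SG1 replicate 2), and 0 to 5 in SG1 against SG3 (the highest without SG3 replicate 1). The cause was not tested. The median of the members in the libraries labelled KIF20A_OE against EV was -0.79 with a pseudocount of 0.1 FPM, -0.43 with 5 FPM, -0.96 with TMM scaling, -1.17 with edgeR on the recovered fragments, and -0.81 to -0.57 with a library left out. HLA-DRA lost its call there with a pseudocount of 5 FPM (limma adjusted p = 0.0834). Of the values of single genes under an alternative in that comparison, 533 kept their side of the threshold and 23 lost the call. Plain column totals moved 3 levels in SG3 beyond their SD, those of CIITA, TAPBPL and ULBP2.

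Whether replicate numbers pair the samples was not settled. In the depletion dataset same-numbered deviations correlated at -0.123 to 0.182 and differently numbered ones at -0.159 to 0.182. In the overexpression dataset these ranges were 0.0142 to 0.0577 and -0.0497 to 0.0093. Deviations from means of 3 libraries cannot exclude a pairing. With the number as a replicate block, 0 members were called in each depletion comparison and 34 (11 higher, 23 lower) in place of 32 in the overexpression dataset, where CANX lost its call (limma adjusted p = 0.0705). HLA-DQA1 and HLA-DQB1, near 0 in the depletion libraries, were not tested there. Between 62.9% and 68.0% of counts of 10 to 50 were even there, and halved counts called 0 genes.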
